A study of Mus musculus with 3 samples.

Results

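DNA replication and mitosis genes are described here as 37 genes chosen by name out of the 32285 genes in the count tables: 13 replication genes (Mcm2 to Mcm7, Pcna, Gins1, Gins2, Cdc6, Cdt1, Pola1 and Prim1), 22 mitosis genes (Mki67, Top2a, Cdk1, Ccna2, Ccnb1, Ccnb2, Cdc20, Ube2c, Birc5, Bub1, Bub1b, Aurka, Aurkb, Plk1, Kif11, Kif20a, Kif23, Cenpe, Cenpf, Tpx2, Nusap1 and Prc1), and Tyms and Uhrf1, which belong to S phase and are kept apart from both groups. The rule uses gene names only, and all 37 were found in each library and passed the filter on low counts. Frozen sections of mouse uterus, taken from females that were mated at about 8 weeks of age and dissected at pregnancy day 7.5, were laid on 10x Visium slides. Their barcoded spots each take up RNA from a patch of tissue, often from several cells of different types. There was 1 group, no treatment beyond mating is named, and the sources used here give neither strain nor genotype. It comprised 3 libraries: library 1+2 held sections of biological replicates 1 and 2 together and counted as 1 replicate, and libraries 3 and 4 held 1 replicate each. The comparisons were therefore made between tissue regions within the libraries.

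Before a cell copies its DNA, CDC6 and CDT1 load the MCM ring onto origins, the GINS complex helps to turn that ring into an active helicase, the primase PRIM1 and DNA polymerase alpha (POLA1) start each strand, and the sliding clamp PCNA keeps polymerases on the template. Mitosis follows under cyclin B and CDK1, with the Aurora and PLK1 kinases, spindle motors and kinetochore proteins, and ends when CDC20 and UBE2C direct the anaphase-promoting complex to destroy cyclins. In the mouse uterus after implantation, stromal cells proliferate and then become decidual cells, many of which turn polyploid by copying DNA without dividing, and trophoblast giant cells do the same. The groups also differ in how they are known to be controlled: E2F factors act on many replication promoters, and the DREAM and MuvB complexes act on mitosis promoters through CHR elements. CCAAT elements were counted as well.

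The promoters of the groups carry different letters. RefSeq promoter windows (build GRCm38.p6, 250 bases before to 50 after each gene's start) were found for 30 of the 37 genes, 11 windows of 10 replication genes and 19 of 18 mitosis genes. An E2F match, taken as TTTGGCGC, TTTCCCGC, TTTGCCGC or TTTCGCGC on either strand, was present in 7 of 11 replication windows (63.6%) and 1 of 19 mitosis windows (5.26%), against 744 of all 32851 windows (2.26%). A CHR match, TTTGAA or TTCGAA on either strand, was present in 15 of 19 mitosis windows (78.9%) and 2 of 11 replication windows (18.2%), against 19.2% of all windows. CCAAT on either strand was common in both, with 89.5% of mitosis and 81.8% of replication windows, against 37.4% of all windows. The matches are descriptions of letters and say nothing of binding.

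Stretches of 150 bases before the start are shown for 7 genes named in the results below, each read along its gene's strand, with E2F, CHR and CCAAT matches in capitals. Also read but not shown were Mcm3, with no E2F match in its stretch and 2 in its whole window, and Ccnb2. The stretch of Ccnb2 holds no CHR match, while its whole window holds 2. Mcm5 (chr8:75109359-75109508, plus strand) and Mcm6 (chr1:128359706-128359855, minus strand) encode helicase subunits and hold E2F matches, which overlap each other at the first site of Mcm6. Cdt1 (chr8:122567865-122568014, plus strand) is a licensing factor that was called higher in the trophoblast-marker region, and this stretch of it holds none of the 3 motifs, while its whole window holds 1 E2F match. Top2a (chr11:99024190-99024339, minus strand), Mki67 (chr7:135716380-135716529, minus strand) and Cdc20 (chr4:118437344-118437493, minus strand) are mitosis genes with CHR matches. Bub1 (chr2:127831860-127832009, minus strand) is a mitosis gene whose levels followed the replication mean more closely than the mitosis mean, and its stretch holds CCAAT and no CHR match, while its whole window holds 1 CHR match.
Mcm5: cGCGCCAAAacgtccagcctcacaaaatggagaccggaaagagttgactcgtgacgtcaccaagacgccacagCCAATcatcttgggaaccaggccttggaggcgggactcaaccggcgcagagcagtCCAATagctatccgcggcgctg
Mcm6: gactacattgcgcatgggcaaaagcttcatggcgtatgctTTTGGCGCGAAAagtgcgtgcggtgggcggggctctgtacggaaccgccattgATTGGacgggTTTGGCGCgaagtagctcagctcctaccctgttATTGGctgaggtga
Cdt1: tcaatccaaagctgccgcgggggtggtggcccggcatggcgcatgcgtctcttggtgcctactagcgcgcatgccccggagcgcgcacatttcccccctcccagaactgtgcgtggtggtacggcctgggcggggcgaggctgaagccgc
Top2a: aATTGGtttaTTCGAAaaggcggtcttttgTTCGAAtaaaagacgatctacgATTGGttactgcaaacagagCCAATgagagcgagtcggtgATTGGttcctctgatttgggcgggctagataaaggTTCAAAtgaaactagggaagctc
Mki67: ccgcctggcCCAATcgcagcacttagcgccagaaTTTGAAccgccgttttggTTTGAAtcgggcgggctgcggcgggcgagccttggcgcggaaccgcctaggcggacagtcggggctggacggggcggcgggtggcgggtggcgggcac
Cdc20: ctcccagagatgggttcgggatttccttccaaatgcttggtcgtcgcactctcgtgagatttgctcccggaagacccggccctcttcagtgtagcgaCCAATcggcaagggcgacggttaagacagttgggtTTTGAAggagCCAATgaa
Bub1: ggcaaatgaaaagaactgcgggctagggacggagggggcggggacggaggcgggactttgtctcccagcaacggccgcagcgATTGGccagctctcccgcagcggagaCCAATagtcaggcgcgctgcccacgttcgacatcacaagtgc

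**Figure D1:**
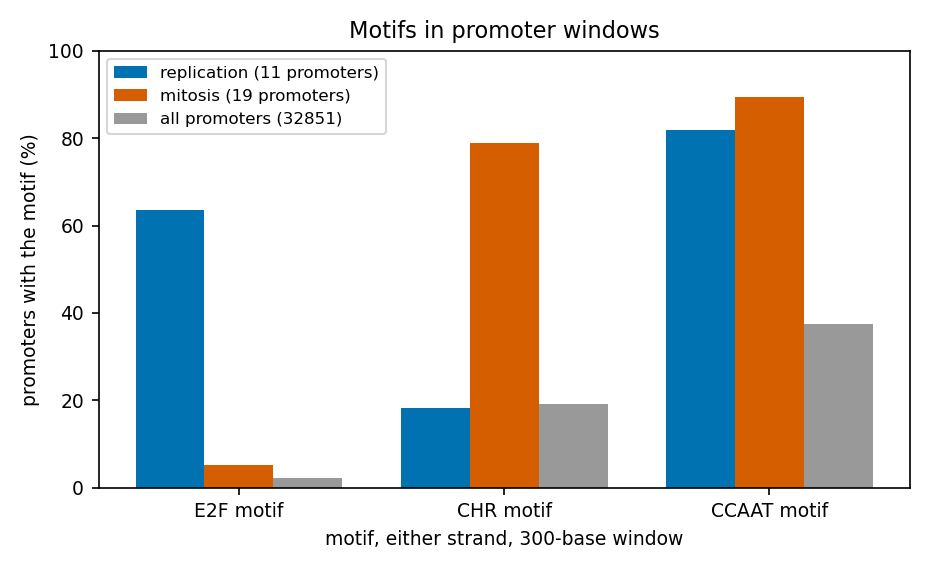
Share of promoter windows (percent, vertical axis) that hold each motif on either strand, for 11 windows of replication genes, 19 windows of mitosis genes and all 32851 windows. The E2F bar is highest in the replication genes (63.6%) and the CHR bar in the mitosis genes (78.9%).

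The libraries held 1773, 1080 and 1086 spots with at least 1000 UMIs (unique molecular identifiers, which count molecules). Library 1+2 was the shallowest, with 16915926 UMIs and a median of 8038 per spot, against up to 29953072 UMIs and a median of 28286 in library 4. Library pairs shared 676 to 825 spot barcodes, which on Visium slides are fixed array positions and not cells. In counts per 1000000 UMIs of a library (CPM), the replication genes took 524, 542 and 519 and the mitosis genes 797, 872 and 803 in libraries 1+2, 3 and 4, so the libraries were alike as a whole. Pcna gave 25.6% of all replication UMIs and Ube2c 15.7% of all mitosis UMIs. The spots fell into 16 regions of like expression, found without these 37 genes. Regions are numbered and named by the genes highest in them over the rest, and 15 of them had at least 20 spots in at least 2 libraries.

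Both groups of genes were highest in region 16 (Lama1, Pim2, Snrpn) and lowest in region 14 (Tnnc1, Pcsk6, Prl7a2). In region 16 the replication genes summed to 1577 CPM in library 1+2 and 1434 CPM in library 4, and the mitosis genes to 2316 and 2164 CPM. In region 14 the replication genes summed to 145 CPM in library 1+2 and 166 CPM in library 4, and the mitosis genes to 68.5 and 86.2 CPM. Neither region had 20 spots in library 3, so both rest on 2 libraries. Region 16 was the highest region for 11 of 13 replication genes and 18 of 22 mitosis genes, and region 14 was the lowest for 11 of 13 and 22 of 22.

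Next to region 16 stood region 9 (Maob, Adgra1, Lrrc17), with 904 ± 83.7 CPM of replication and 1679 ± 88.2 CPM of mitosis genes (mean ± SD, n = 3 libraries), and region 2 (Cxcl12, Spon2, Sfrp1), with 874 ± 35.6 and 1598 ± 42.9 CPM. These 2 regions overlapped each other in both sums, while every library of region 16 lay above every library of region 9. Below them, region 7 (Stmn2, Slc4a11, Cgn), region 4 (F13a1, Ptgs2, Spp1), region 13 (Plet1, Psg29, Mmp9) and region 1 (Scn3b, Vsig2, Pmaip1) had mean replication sums of 706, 691, 607 and 574 CPM, and each overlapped the next. Region 3 (Ptx3, Sprr2d, Psca) had the second lowest means, with 252 ± 12.8 CPM of replication and 241 ± 4.50 CPM of mitosis genes, and all its libraries lay above those of region 14, while its replication sums overlapped those of region 5 (Nppa, Tnni2, Spock2; 260 ± 47.4 CPM). A spot holds several cells, so fewer cycling cells and less of these RNAs per cell cannot be told apart in any of these levels.

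**Figure D2:**
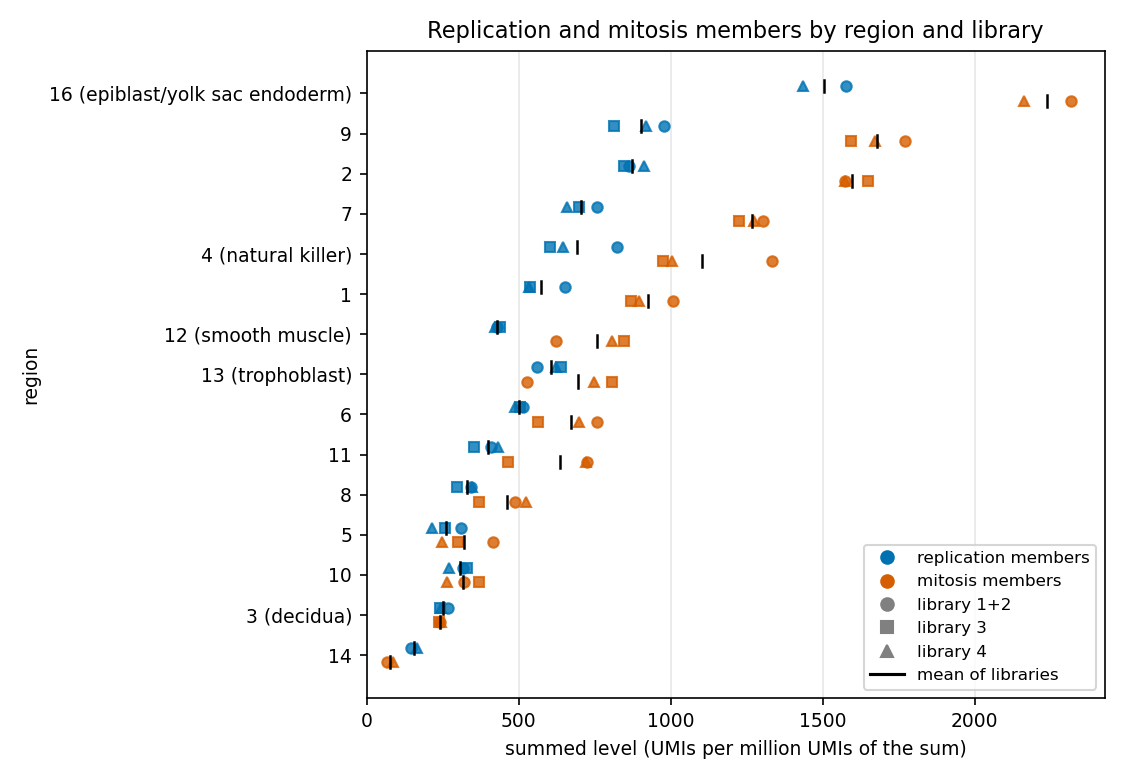
Summed CPM (horizontal axis) of the 13 replication genes (blue) and 22 mitosis genes (orange) in each of 15 regions, with 1 symbol per library and a bar at the mean; names in brackets are the marker lists that picked a region. Region 16 stands apart at the top, with means of 1506 and 2240, and region 14 at the bottom, with 155 and 77.3.

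The mitosis genes spanned a wider range than the replication genes, and the balance between them differed among regions. The replication sum was 1.10, 1.03 and 1.00 times the mitosis sum in region 3 (libraries 1+2, 3 and 4), and 2.11 and 1.93 times in region 14 (libraries 1+2 and 4). In region 9 it was 0.553, 0.510 and 0.549 times. On the log2 scale the ratio averaged 1.01 ± 0.09 in region 14 (n = 2), 0.06 ± 0.07 in region 3 (n = 3), -0.17 ± 0.23 in region 13 (n = 3), -0.57 ± 0.03 in region 16 (n = 2), -0.68 ± 0.03 in region 4 (n = 3) and -0.90 ± 0.06 in region 9 (n = 3). Region 14 thus held more replication than mitosis UMIs in both libraries, on 169 against 80 UMIs and 241 against 125 UMIs.

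The balance depended on the most counted genes. Without Pcna and Ube2c the log2 ratio was 0.37 in region 14, the only tested region above 0, and -0.31 in region 3. Region 13 did not keep 1 order over its libraries: replication exceeded mitosis in library 1+2 (559.6 against 528 CPM) and was below it in library 3 (639 against 806 CPM) and library 4 (622 against 748 CPM). The ratio was described and not tested, since it sums genes chosen for this account.

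**Figure D3:**
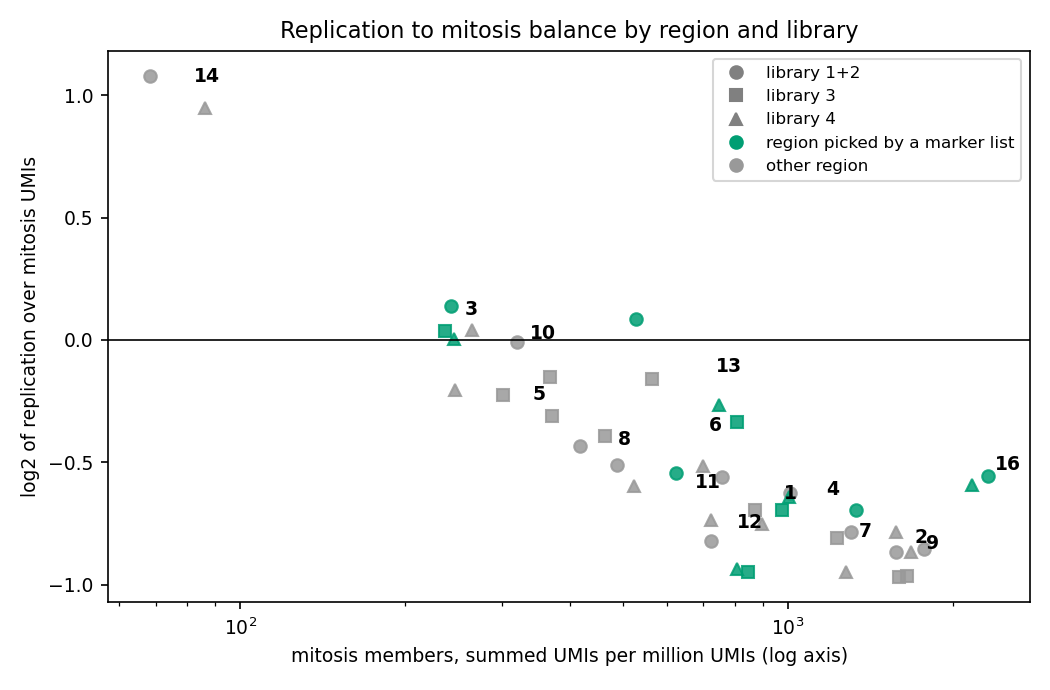
Log2 of replication over mitosis UMIs (vertical axis) against the summed mitosis level (CPM, log axis), 1 symbol per library and region, with region numbers beside the means; regions picked by a marker list are green. Region 14 lies near 1 at the left and region 9 near -0.9 at the right, while region 16 sits at -0.57 with the highest mitosis level.

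To tie regions to tissues, 1 region was picked per marker list, the one where the list's log2 fold change averaged highest. The natural killer markers (Prf1, Gzma, Ncr1 and others) picked region 4, where they summed to 4787 to 7684 CPM, against 8.57 to 20.1 CPM in region 3. The decidua markers (Prl8a2, Prl3c1, Cryab and others) picked region 3, at 58721 to 98242 CPM. Region 14 held more of their sum, at 134887 and 201348 CPM, though its mean log2 fold change over the list was not the highest. Trophoblast markers picked region 13 (2878 to 3932 CPM), smooth muscle markers region 12 (Fbxl22, Bves, Itih5; 26752 to 39784 CPM), and the epiblast and yolk sac endoderm lists both picked region 16 (1433 and 1429 CPM for epiblast, 3875 and 4453 CPM for yolk sac endoderm). The labels name only uterine sections, and no region is a pure tissue: region 9 also held 2834 to 5962 CPM of natural killer markers, and region 16 held 1181 and 1397 CPM of trophoblast markers.

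Gene by gene, each picked region was set against the other regions, averaged on the log2 scale, by edgeR's quasi-likelihood test of counts summed per library and region, over 6391 genes. Fold changes are TMM-scaled log2 values ± SE, while CPM are per UMIs of the sum, and a gene was called at a Benjamini-Hochberg adjusted p under 0.05 with a log2 fold change of 1 or more in either direction. The SE was worked back from the test, as the size of the log2 fold change over the root of its F, and is unstable near 0. The spread is that between 3 libraries, pooled over all regions, and a reference taken as a mean of logs is pulled down by a region near 0. The comparisons share regions, so their results are not independent. This touches Cenpe and Cenpf, which encode a kinetochore motor and a kinetochore-binding protein: neither had a UMI in region 14, where the limit of 3 counts is 2.57 CPM in library 1+2 and 2.07 CPM in library 4.

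The decidua-marker region 3 held less RNA of most of these genes than the natural killer-marker region 4. Set directly against region 4, region 3 was lower for 7 of 13 replication genes and 21 of 22 mitosis genes, and for Tyms and Uhrf1. None of the 37 was called higher. Of all genes tested, 18.5% were called lower and 11.1% higher. The median log2 fold change was -1.02 over the replication genes, -1.81 over the mitosis genes and -0.12 over all genes.

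Mki67, whose protein coats mitotic chromosomes and marks cycling cells, stood at 11.9, 14.1 and 12.9 CPM in region 3 and at 101, 74.0 and 74.0 CPM in region 4 (libraries 1+2, 3 and 4). Its log2 fold change was -2.12 ± 0.17 (adjusted p = 2.83e-14), and the regions did not overlap. Cyclin B2 (Ccnb2), a partner of CDK1, had 5.93, 4.50 and 6.43 CPM in region 3, against 64.1, 31.4 and 39.1 CPM in region 4, a log2 fold change of -2.37 ± 0.23 (adjusted p = 1.34e-11). Ube2c, the ubiquitin-conjugating enzyme that feeds cyclins to the proteasome, had 32.3, 25.2 and 32.9 CPM in region 3 and 227, 174 and 183 CPM in region 4 (-2.21 ± 0.19, adjusted p = 4.48e-13). The kinetochore genes were also far lower: Cenpf fell by 2.53 and Cenpe fell by 2.32 on the log2 scale, on 2, 8 and 3 UMIs for Cenpf and 10, 8 and 3 UMIs for Cenpe in region 3. Top2a, the topoisomerase that untangles chromosomes (-1.79 ± 0.20), Ccnb1 (-1.58 ± 0.22), Cdk1 (-1.42 ± 0.19) and Birc5, or survivin, of the chromosomal passenger complex (-1.14 ± 0.19) were lower too. Nusap1, which bundles spindle microtubules, was the mitosis gene not called: its adjusted p of 0.0416 passed but its log2 fold change of -0.63 ± 0.26 was too small.

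Among the replication genes, Mcm6 of the helicase ring had 16.5, 18.003 and 15.1 CPM in region 3 and 80.5, 72.7 and 67.9 CPM in region 4, a log2 fold change of -1.68 ± 0.18 (adjusted p = 8.27e-11). Pola1 (-1.59 ± 0.31), Cdc6 (-1.49 ± 0.32), Prim1 (-1.46 ± 0.25), Mcm5 (-1.19 ± 0.14), Mcm7 (-1.14 ± 0.18) and Gins1 (-1.02 ± 0.32) were also lower. Pcna had 98.9, 72.3 and 72.2 CPM in region 3, against 256, 153 and 180 CPM in region 4, and Mcm2 had 18.5, 18.3 and 21.2 against 64.1, 41.3 and 48.2 CPM. Neither pair of regions overlapped, but the log2 fold changes of -0.77 ± 0.11 and -0.83 ± 0.21 did not reach the size for a call. Cdt1 (-0.42 ± 0.17) and Gins2 (-0.38 ± 0.21, adjusted p = 0.129) lay nearest to 0.

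Uhrf1, which brings the maintenance methyltransferase to replicated DNA, had 2.64, 4.20 and 3.40 CPM in region 3 and 34.8, 27.9 and 36.4 CPM in region 4 (-2.68 ± 0.27, adjusted p = 3.66e-11). Tyms, the enzyme that makes thymidylate, averaged 15.8 ± 1.39 CPM in region 3 and 50.9 ± 1.39 CPM in region 4 (-1.25 ± 0.21). Scaling bears on the sizes: with library totals in place of TMM the median of all genes moved to -0.57, the calls split into 453 higher and 1852 lower, 11 replication genes were called lower and Pcna (-1.24) and Mcm2 (-1.29) were among them. The replication count was 4 at clustering resolution 1.0 and 4 with spots of at least 5000 UMIs. Both runs drew and picked the regions anew, and 931 of 6369 and 1174 of 6482 genes were lower in them. The mitosis count stayed at 18 to 22 in every alternative run. Region 4 had 33 spots in library 1+2 and held 3215 to 7415 CPM of decidua markers, whose part in these differences was not tested.

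Against the mean of all other regions, region 3 was lower for 5 of 13 replication genes (Pola1, Cdc6, Mcm6, Prim1 and Mcm7, at -1.25 to -1.02) and for 15 of 22 mitosis genes, with 10.8% of all genes lower and 9.51% higher. The median log2 fold change was -0.79 over the replication genes, -1.34 over the mitosis genes and -0.08 over all genes. Cdc20, the activator of the anaphase-promoting complex, had 5.27, 3.60 and 3.40 CPM in the libraries of region 3, against a mean of 27.2 CPM in the other regions (-2.03 ± 0.25, adjusted p = 3.89e-09). The cytokinesis genes Kif23 (-1.999 ± 0.39) and Prc1 (-1.76 ± 0.23) and the cyclin Ccnb2 (-1.65 ± 0.22) followed, then Mki67 (-1.45 ± 0.15), Top2a (-1.14 ± 0.17) and Ccnb1 (-1.03 ± 0.19). Nusap1 (0.01 ± 0.20), Gins2 (-0.03 ± 0.17), Pcna (-0.35 ± 0.08), Mcm2 (-0.66 ± 0.17) and Birc5 (-0.70 ± 0.15) were not called.

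Cenpe and Cenpf have no usable p in that contrast because of region 14. With region 14 left out of the fit, an alternative added after the data were seen, both were called lower (-1.80 ± 0.29, adjusted p = 1.66e-06, and -2.31 ± 0.33, adjusted p = 1.04e-07). Uhrf1 was called lower (-2.34 ± 0.24) and Tyms, at -0.94 ± 0.17, was not. At clustering resolution 1.0 the calls for the region picked by the decidua markers were 0 replication and 4 mitosis genes, and with spots of at least 5000 UMIs 0 and 1. Of all genes, 460 of 6369 and 620 of 6482 were lower in these runs. The replication count was 2 without library 4 (318 of 6434 genes lower) and 3 without library 1+2 (585 of 6860). It was 8 with library totals, where the calls over all genes split into 396 higher and 1087 lower and the median of all genes moved to -0.40.

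**Figure D4:**
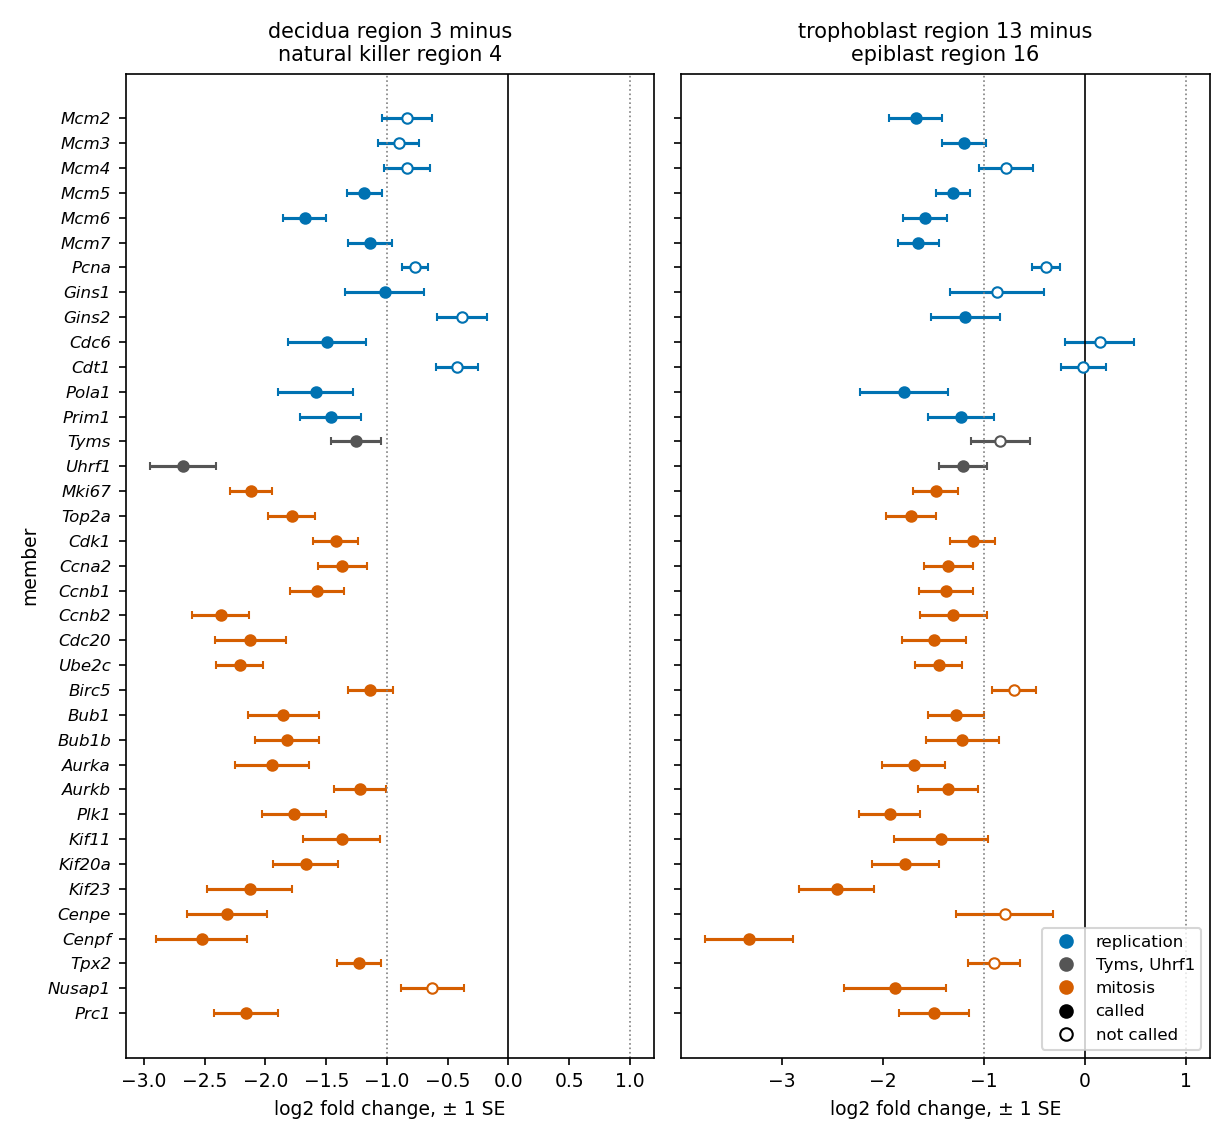
Log2 fold changes ± 1 SE (horizontal axis) of the 37 genes (vertical axis) between the decidua-marker region 3 and the natural killer-marker region 4 (left), and between the trophoblast-marker region 13 and region 16 (right); filled points were called and dotted lines mark a size of 1. Most points lie left of 0 on both sides, with medians of -1.02 and -1.81 for replication and mitosis genes on the left and -1.20 and -1.44 on the right, while Cdc6 (0.15) and Cdt1 (-0.01) sit at 0 on the right.

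Region 4 itself stood little above the mean of the other regions. None of the 13 replication genes and 1 of 22 mitosis genes, Cenpe, was called higher in edgeR's test, with 9.2% of all genes higher and 3.54% lower. At an unadjusted p under 0.05 in edgeR's test, 8 replication and 20 mitosis genes passed, beside 2527 of all 6391 genes. DESeq2's Wald test, at the thresholds for a call, likewise called 0 and 1. The medians were 0.38 over the replication genes, 0.53 over the mitosis genes and 0.05 over all genes, and all 22 mitosis genes lay above 0. Mki67 had 101, 74.0 and 74.0 CPM in region 4, against a mean of 57.4 CPM in the other regions (0.82 ± 0.11), and Top2a had 121, 88.5 and 86.1, against 67.7 CPM (0.78 ± 0.13). Pcna (0.48 ± 0.07), Ccnb1 (0.66 ± 0.14), Mcm2 (0.23 ± 0.14), Mcm3 (0.18 ± 0.11), Cdc20 (0.24 ± 0.17), Kif23 (0.28 ± 0.21) and Cdt1 (-0.12 ± 0.12) were not called either. Cenpe was at 27.5, 18.2 and 17.8 CPM in region 4 (1.24 ± 0.23, adjusted p = 2.04e-05), but without region 14 its log2 fold change was 0.71, below the size for a call. The runs at 5000 UMIs and resolution 1.0 drew and picked the region anew. With spots of at least 5000 UMIs, 3 replication and 17 mitosis genes were called higher, beside 657 of all 6482 genes. At resolution 1.0 0 and 5 were, beside 541 of 6369. The count was 4 mitosis genes without library 4 (604 of 6434 genes higher), 2 without library 3 (528 of 6277) and 4 with library totals (719 of 6391).

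The trophoblast-marker region 13 had few of these genes called. Cdc6 and Cdt1 were the 2 of 13 replication genes called higher, Bub1 and Birc5 were higher and Nusap1 was lower among the 22 mitosis genes, and Uhrf1 was higher. Of all genes, 13% were called higher and 10% lower, so these shares are near the background. Cdc6 had 15.8, 36.1 and 30.4 CPM in region 13, against a mean of 9.13 ± 1.03 CPM in the other regions (2.01 ± 0.19, adjusted p = 6.73e-12), and this was its highest region by mean, with region 16 level at 26.5 CPM. Cdt1 had 65.4, 81.8 and 79.4 CPM, against 35.6 ± 3.81 CPM (1.29 ± 0.12, adjusted p = 1.95e-12). Uhrf1 had 47.4, 55.1 and 52.5 CPM, against 29.0 ± 4.18 CPM (1.498 ± 0.16, adjusted p = 6.51e-11). All 3 genes were higher than that mean in every library.

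The helicase and general proliferation genes of region 13 were not called. Mcm2 had 49.6, 27.5 and 39.2 CPM (0.04 ± 0.17), Mcm3 had a log2 fold change of 0.19 ± 0.14, Mcm5 of 0.60 ± 0.11, Top2a of -0.10 ± 0.17 and Mki67 of -0.24 ± 0.15, with Pcna at 0.51 ± 0.08 and Ccnb1 at 0.59 ± 0.18. The sign of Mcm2 turned with DESeq2 size factors, and those of Mki67 and Top2a when 1 library was left out. The checkpoint kinase gene Bub1 had 15.8, 21.5 and 16.2 CPM, against a mean of 11.4 CPM (1.25 ± 0.19, adjusted p = 5.43e-07), Birc5 had 133, 200 and 159, against 105 CPM (1.09 ± 0.13), and Nusap1 had 4.51, 9.47 and 5.88, against 18.3 CPM (-1.10 ± 0.32, adjusted p = 0.00414). Kif11 and Plk1, a spindle motor and a mitotic kinase, lay at -0.0048 and 0.010.

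Medians in region 13 were 0.34 over the replication genes, 0.02 over the mitosis genes and -0.01 over all genes. Other tissue is mixed into this region: the decidua markers summed to 63787 CPM in its library 1+2, against 11707 and 19114 CPM in libraries 3 and 4, and adult globins to 7397, 7740 and 9939 CPM. Epiblast markers summed to 289, 367 and 353 CPM in libraries 1+2, 3 and 4 of region 13, and yolk sac endoderm markers to 564, 11.2 and 455 CPM. Region 16, picked by both of these lists, held 1433 and 1429 CPM of epiblast markers in libraries 1+2 and 4. Its yolk sac endoderm markers summed to 3875 and 4453 CPM. Within region 13, library 1+2 had the lowest Cdc6, Bub1 and Birc5. The part of the mixed tissue in these levels, and in those of Cdt1 and Uhrf1, was not tested. Without region 14 the mitosis calls were 1 higher and 2 lower: Birc5 lost its call (0.85) and Cenpf, without a usable p before, was lower (-1.31 ± 0.34, adjusted p = 0.00147). Leaving out library 3 also left 1 mitosis gene higher, since Birc5 stood at 0.96, and Nusap1 was not called without library 1+2 (-0.87) or library 4 (-0.91).

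Region 16, picked by both embryonic lists, had the most called genes of the 5 picked regions when each was set against the rest. There 11 of 13 replication genes and 20 of 22 mitosis genes were called higher, as were Tyms and Uhrf1, and none was lower, with 15% of all genes higher and 13.9% lower. The medians were 1.47 over the replication genes, 1.66 over the mitosis genes and -0.07 over all genes. Mcm7 had 171 and 239 CPM in libraries 1+2 and 4 of region 16, against a mean of 48.7 CPM in the other regions (2.14 ± 0.17, adjusted p = 2.98e-14). Mcm5 (162 and 210 CPM, 1.99 ± 0.14), Mcm6 (189 and 158 CPM, 1.99 ± 0.18), Cdc6 (18.02 and 34.9 CPM, 1.85 ± 0.34) and Mcm2 (162 and 138 CPM, 1.84 ± 0.21) followed. Pcna, at 315 and 243 CPM, and Gins2, at 99.1 and 44.7 CPM, just missed the size for a call (0.92 ± 0.11 and 0.98 ± 0.29).

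Of the mitosis genes in region 16, Cenpf had 63.1 and 46.1 CPM, against a mean of 10.8 CPM in the other regions (2.82 ± 0.34, adjusted p = 6.24e-09). Bub1 (2.61 ± 0.26), the spindle pole kinase Aurka (2.46 ± 0.27), Kif23 (2.40 ± 0.30), Ccnb1 (2.06 ± 0.23), Top2a (1.75 ± 0.20) and Mki67 (1.34 ± 0.19) were called as well. Ccnb2 (0.99 ± 0.28) and Nusap1 (0.92 ± 0.39, adjusted p = 0.0553) were not. The call of Cenpe is fragile, since it had 0 UMIs in library 1+2 (the limit of 3 counts is 27.0 CPM) and 23.8 CPM in library 4, its mean of 11.9 CPM was below the 12.96 CPM of the other regions, and its log2 fold change of 1.28 became 0.74 (adjusted p = 0.155) without region 14. Uhrf1 had 135 and 145 CPM in region 16, against 25.5 CPM (2.79 ± 0.21), and was higher there than in any other region.

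Region 16 had 24 spots in library 1+2 and 27 in library 4, and its library 1+2 sum held 110964 UMIs. It also held 22187 and 8675 CPM of decidua markers in libraries 1+2 and 4, whose part in these levels was not tested. Without library 4 its only sum is assumed to vary like those of other regions. Fewer of these genes and fewer of all genes were then called higher. The median log2 fold changes were 1.39 over the replication genes, 1.54 over the mitosis genes and -0.51 over all genes. With spots of at least 5000 UMIs the epiblast list picked the trophoblast-marker region, and the calls were 2 replication genes higher and 2 mitosis genes higher and 2 lower. Of all 6482 genes of that run, 827 were higher and 965 lower. With library totals the calls over all genes split into 1231 higher and 660 lower.

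In the smooth muscle-marker region 12 few of these genes were called. None of the 13 replication genes was called in edgeR's test and 1 of 22 mitosis genes, Cenpf, was higher, where 16.1% of all genes were called higher and 6.99% lower. DESeq2's Wald test called 0 and 2. In edgeR's test 3 replication and 11 mitosis genes had an unadjusted p under 0.05, beside 3240 of all 6391 genes. Those shares of the 2 groups do not exceed that of all genes. The medians were -0.14, 0.34 and 0.05 over replication, mitosis and all genes. Pcna had 92.3, 94.3 and 84.0 CPM in region 12, against a mean of 141 CPM in the other regions (-0.52 ± 0.09). Mki67 had 42.0, 47.8 and 49.4, against 60.1 CPM (0.15 ± 0.14), and Top2a, Ccnb1, Mcm2, Mcm5, Gins2 and Aurka had log2 fold changes of 0.03, -0.13, 0.19, -0.04, -0.03 and 0.05. Mki67, Top2a, Mcm2 and Ccnb1 changed sign in at least 1 alternative. Cenpf had 19.9, 15.5 and 11.9 CPM (1.24 ± 0.30, adjusted p = 0.000704), but without region 14 stood at 0.77 and was not called, as in the fit without library 1+2 (1.02, adjusted p = 0.0563). The mitosis count was 0 with the other set of genes for clustering, 2 without library 1+2 or library 4, 3 at resolution 1.0 and 4 with spots of at least 5000 UMIs. Of all genes, 964 to 1058 were higher in these runs. Those with the other set, resolution 1.0 and 5000 UMIs drew and picked the region anew.

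Set directly against region 16, region 13 was lower for 8 of 13 replication genes and 19 of 22 mitosis genes, and for Uhrf1, with 9.34% of all genes lower and 12.3% higher. The medians were -1.20, -1.44 and 0.10 over replication, mitosis and all genes. Cenpf had 0, 1.72 and 6.37 CPM in region 13 (libraries 1+2, 3 and 4), against 63.1 and 46.1 CPM in region 16 (libraries 1+2 and 4), a log2 fold change of -3.32 ± 0.44 (adjusted p = 1.27e-07), where a count of 0 in library 1+2 allows up to 6.77 CPM. Kif23 (-2.46 ± 0.37), Plk1 (-1.93 ± 0.30), Nusap1 (-1.88 ± 0.50), Pola1 (-1.79 ± 0.43), Top2a (-1.72 ± 0.25), Mcm2 (-1.67 ± 0.26), Mcm7 (-1.65 ± 0.21), Mcm6 (-1.58 ± 0.22), Mki67 (-1.48 ± 0.23) and Ccnb1 (-1.37 ± 0.27) were lower. The licensing factors Cdc6 (27.4 ± 10.5 CPM, n = 3, against 26.5 ± 12.0 CPM, n = 2; 0.15 ± 0.34) and Cdt1 (75.5 ± 8.83 against 113 ± 43.6 CPM; -0.01 ± 0.22) were not called, nor were Pcna (-0.38 ± 0.14), Birc5 (-0.70 ± 0.22) and Cenpe (-0.79 ± 0.48). Without library 4, where region 16 keeps 1 sum, fewer of these genes and fewer of all genes were called lower. The medians were then -0.92 over the replication genes, -1.36 over the mitosis genes and 0.54 over all genes. With library totals in place of TMM the calls over all genes split into 562 higher and 805 lower.

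**Figure D5:**
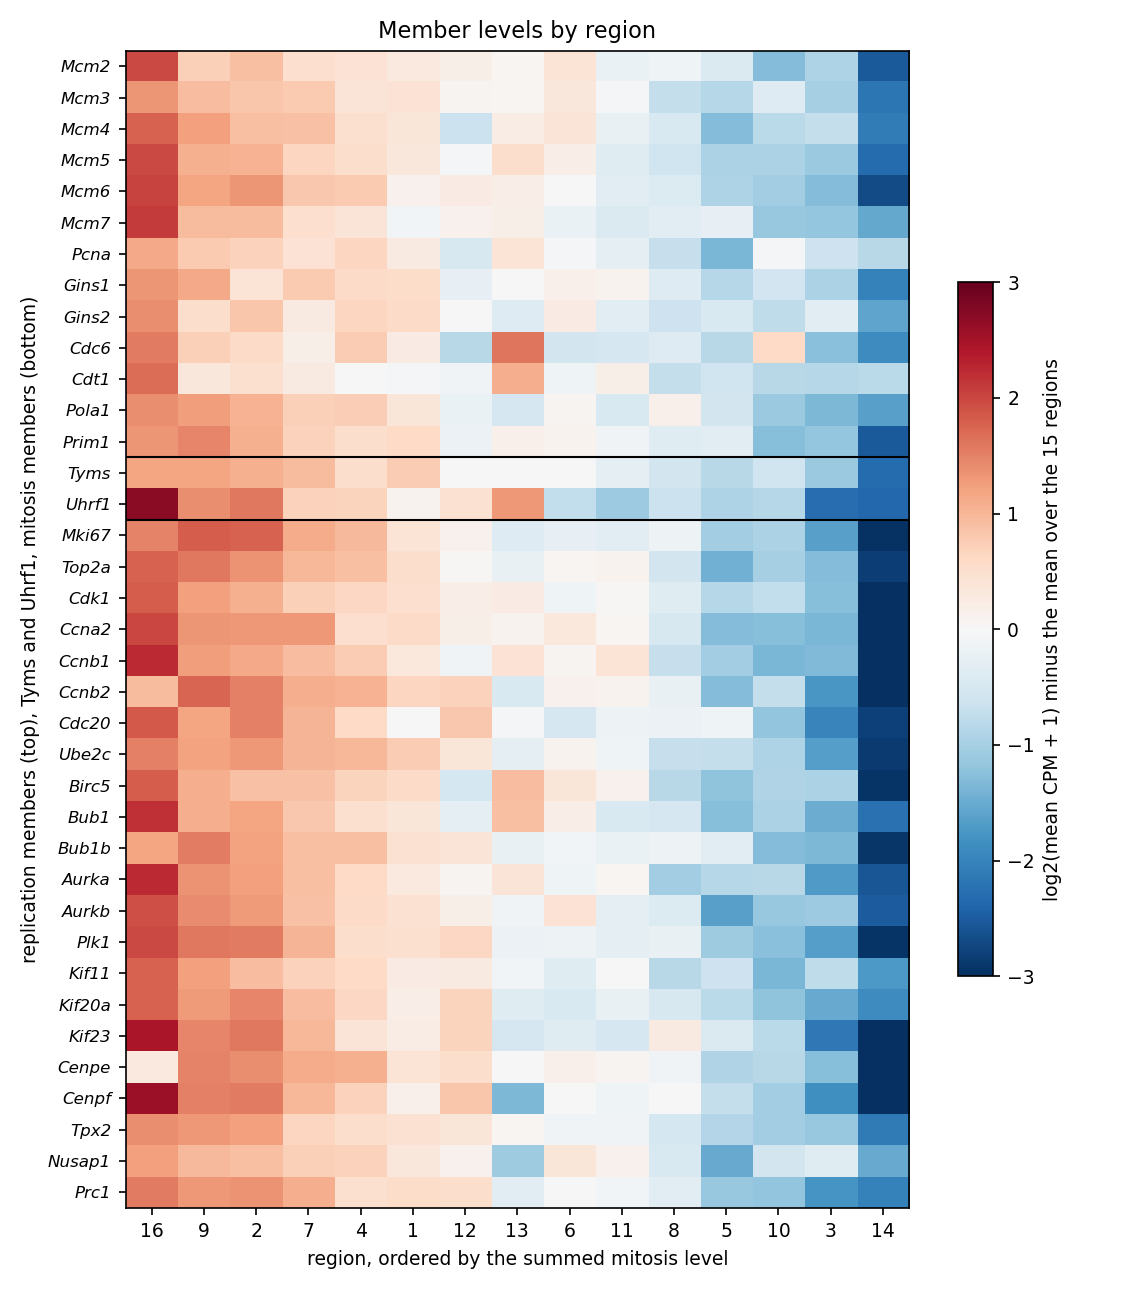
Log2 of mean CPM plus 1 of each of the 37 genes (rows) in the 15 regions (columns, ordered by summed mitosis level), minus that gene's mean over the regions; red is above and blue below. Most rows run from red in region 16 to blue in region 14, while Cdc6 and Cdt1 have a second high value in region 13 (27.4 and 75.5 CPM).

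Across the 43 sums of library and region, the 37 genes followed each other closely. Pearson's r of log2 CPM, centred within libraries, between a replication gene and the mean of the other replication genes was 0.71 to 0.99 with a median of 0.91, and with the mean of the mitosis genes 0.67 to 0.97. For the mitosis genes r with the other mitosis genes was 0.77 to 0.97 with a median of 0.94. The sums share libraries, depth and neighbouring tissue, so these are descriptions. The groups were not cleanly separate: 7 of 13 replication genes were closer to the replication mean, and 5 of 22 mitosis genes (Ccnb1, Birc5, Bub1, Aurka and Kif11) were closer to the replication mean than to the mitosis mean. The margins in r were small, at 0.0003 for Aurka, 0.0012 for Kif11, 0.0058 for Ccnb1, 0.048 for Birc5 and 0.054 for Bub1. Gins2, among the 7 replication genes, had a margin of 0.0007. The least alike were Cdc6 (0.71), Nusap1 (0.77) and Cdt1 (0.79), each against its own group, and the closest was Mcm5 (0.99). The SD of log2 CPM over the sums had a median of 0.98 for the replication genes and 1.26 for the mitosis genes, from 0.68 for Pcna to 1.67 for Cenpf.

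Between single spots the link was looser. With every spot thinned to 3000 UMIs, the summed replication and mitosis counts had a Spearman rho of 0.41, 0.37 and 0.39 in libraries 1+2, 3 and 4 (1605, 1078 and 1083 spots), and at 1000 UMIs of 0.20, 0.14 and 0.16. Within single regions at 3000 UMIs rho ran from -0.24 (region 11, library 3) to 0.34 (region 13, library 1+2). The part of level differences between regions in the values over whole libraries was not tested. At 3000 UMIs a thinned spot held on average 1.53 to 1.59 replication UMIs and 2.31 to 2.49 mitosis UMIs, so counting error limits all these values.

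Other genes of the same processes were counted as lists. In region 3 against region 4, 12 of 33 further replication genes and 32 of 49 tested further mitosis genes were lower and none was higher, beside 18.5% of all genes lower, and their medians were -0.79 and -1.28, against -0.12 over all genes. By smallest p, the replication list was led by Lig1, the ligase that joins Okazaki fragments (-1.77), Slbp, which binds histone mRNA (-1.001), and Rfc3 of the clamp loader (-1.57), and the mitosis list by the centromeric histone Cenpa (-1.54), Cdca8 (-1.87) and Cks2 (-1.52). Region 3 against the other regions had 5 and 15 lower and none higher, beside 10.8% of all genes lower, so the replication count is near the background. Region 13 against region 16 had 10 and 24 lower and none higher, beside 9.34% of all genes lower. In region 16 against the other regions 21 of 33 and 33 of 49 were higher and none was lower, beside 15% of all genes higher, among them the chromatin remodeller Hells (3.24), Tipin (1.59), Slbp (1.41), Melk (2.41), Cks2 (1.86) and Cenpa (1.52). Regions 4, 13 and 12 had 1, 2 and 1 of the replication list called higher (Dscc1 1.15 in region 4; Orc1 2.25 and Dbf4 1.06 in region 13; Pola2 2.37 in region 12) and 1, 3 and 4 of the mitosis list. With 9.2%, 13% and 16.1% of all genes higher in these regions, those counts are below the background and say nothing of the lists. Region 12 also had Fen1 lower (-1.07) and region 13 had Cdc25b lower (-2.92).

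Genes that feed and control the cycle were counted as lists too. Rrm2, a subunit of ribonucleotide reductase, which makes deoxynucleotides, had 4874, 4386 and 4463 CPM in region 3 and 1832, 1727 and 1590 CPM in region 4, and was called higher in region 3 (1.89 ± 0.13, adjusted p = 4.23e-16), while Tk1, thymidine kinase, was lower (-2.53 ± 0.20). Region 14, lowest in the replication and mitosis genes, had 2994 and 2267 CPM of Rrm2, and region 16, highest in them, had 730 and 735 CPM. Rrm1 (1.48) and Cad (1.54), which begins pyrimidine synthesis, were higher in region 3 with Rrm2, and Dctpp1 (-1.07) was lower.

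Among 23 cyclins, E2F genes and inhibitors, region 3 against region 4 had 1 higher (Cdk6, 1.11) and 10 lower, with Ccnd3 (-1.69), Cdkn1a (-1.04) and Fbxo5 (-1.83), an inhibitor of the anaphase-promoting complex, at the smallest p, beside 11.1% of all genes higher and 18.5% lower. Region 13 against the other regions had 5 higher and 1 lower: Cdkn1c, which encodes the inhibitor p57 (4.20), Gmnn, which encodes geminin, the partner and inhibitor of CDT1 (1.64), the cyclin E genes Ccne1 (1.97) and Ccne2 (1.56), and E2f2 (2.20) were higher, and Cdk6 (-2.79) was lower, beside 13% of all genes higher and 10% lower. In that region Tk1 (1.06) and Dctpp1 (1.01) of the nucleotide list were higher, and Cdc25b, lower there, encodes a phosphatase that activates CDK1. Region 16 had 9 higher and 2 lower, led by Mybl2 (3.81), Fbxo5 (3.02) and Gmnn (1.75), beside 15% of all genes higher and 13.9% lower. Region 12 had 3 higher and 2 lower, beside 16.1% of all genes higher and 6.99% lower, counts near the background, led by Ccnd1 (2.69), Cdkn2c (1.78) and E2f8 (-2.41). Region 4 had none called of the 23, of which 7 had an unadjusted p under 0.05 in edgeR's test. Beside 2527 of all 6391 genes, that share is not above the background.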

How the data were processed

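Mouse uterus at pregnancy day 7.5 was measured in 3 Visium libraries of 1 group. The authors deposited raw UMI counts per gene and spot, made with Space Ranger 1.2.2 per the file headers. Cell Ranger and the mm10 build are named in the submitters' processing notes. Not given in the sources used here were aligner settings, annotation version, strand handling and any filter on spots. The 37 genes and all other gene lists were chosen with earlier results of these data known.

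Spots with at least 1000 UMIs were kept (1773, 1080 and 1086; 38, 1 and 0 left out). Genes were split at random into 2 equal sets. Regions were clustered (Leiden, resolution 0.6, 20 components, 15 neighbours) on 1500 variable genes of 1 set without any listed gene, with scanpy 1.11.5. How variable genes were chosen was settled after seeing how libraries mixed and how markers fell, without looking at the 37 genes. The other set and all listed genes were tested. Because spots hold several cells, no doublet caller was run.

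Counts were summed per library and region (at least 20 spots, at least 2 libraries; 43 sums, 15 regions) and fitted with edgeR 4.0.16 (R 4.3.3): quasi-likelihood test, TMM scaling, filterByExpr, and library as a block, since regions of 1 library come from the same sections. The 6391 genes tested were adjusted together by Benjamini-Hochberg. CPM are counts per 1000000 UMIs of the sum. Limits for a count of 0 are 3 counts and cover counting error only. Named genes were the up to 4 called members with the largest change and the up to 2 uncalled members nearest to 0 per group and comparison, up to 3 called genes of each further list with the smallest p, and a fixed set (Pcna, Mcm2, Mki67, Top2a, Ccnb1); other names were chosen after their values were seen. On simulated counts for region 1 against the other regions (6391 genes), an adjusted p under 0.05, with no minimum fold change, was reached by 98% of genes raised 2-fold, 88% of genes lowered to 0.5 of their level, 66% of genes raised 1.5-fold and 0.113% of unchanged genes.

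Alternatives were DESeq2 1.42.0 (size factors, Wald test), no filter, no minimum fold, no block, the other gene set, resolution 1.0, spots of at least 5000 UMIs, each library left out, thinning to 1000 UMIs and the ratio without the most counted genes. Leaving region 14 out and scaling by library totals were added after seeing the data.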

Additional observations from a re-analysis of the deposited data

How the results depend on the processing

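Of 180 counts of called genes under alternatives, 135 stayed within 1.5 times of the reported count, 44 moved further and 1 changed direction. Counts here are of genes called higher in regions 4, 13 and 16 and, for mitosis, region 12, and of genes called lower in the other comparisons, and calls in the other direction are named as such. With the other gene set, resolution 1.0 or spots of at least 5000 UMIs, spots were clustered anew and regions picked again by the marker lists. For these runs, here and below, a region number stands for the region the same list picked, which need not hold the same spots. Without a minimum fold change, called replication genes numbered 5 (region 4), 12 (region 3), 6 (region 13), 3 lower (region 12) and 12 (region 3 against region 4). Called mitosis genes numbered 17 (region 4), 5 with 1 lower (region 13) and 9 with 1 lower (region 12). Of all 6391 genes, 1347 were then higher in region 4, 1402 lower in region 3 and 1763 lower in region 3 against region 4. In region 13, 1743 were higher and 1200 lower, and in region 12, 1703 and 1159. The mitosis counts of region 13 are near or below these shares, and the replication count of region 12 is near its share. With the other gene set for clustering the replication counts were 3 (region 3) and 2 (region 12) and the mitosis counts 2 (region 4) and 0 (region 12). Of 6486 genes, 692 (region 3) and 259 (region 12) were then lower, and 515 (region 4) and 999 (region 12) higher. At resolution 1.0 the replication counts were 0 (region 3) and 4 (region 3 against region 4) and the mitosis counts 5 (region 4), 4 (region 3) and 3 (region 12). With spots of at least 5000 UMIs the replication counts were 3, 0 and 4 (region 4, region 3, and region 3 against region 4). The mitosis counts were 17, 1 and 4 (regions 4, 3 and 12). The epiblast list then picked the trophoblast-marker region and not region 16, with 2 replication genes higher and 2 mitosis genes higher and 2 lower. The contrast of regions 13 and 16 could not be fitted, since 1 region was picked for both. DESeq2 size factors and DESeq2's Wald test each called 2 mitosis genes in region 12.

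Leaving out 1 library moved the replication counts to 2 to 4 (region 3), 6 to 11 (region 16) and 1 to 8 (region 13 against region 16), and the mitosis counts to 1 to 4 (region 4), 1 to 2 higher (region 13, with 1 lower without library 3 and none without the other libraries), 8 to 21 (region 16), 1 to 2 (region 12) and 4 to 19 (region 13 against region 16); the lowest counts of both contrasts with region 16 came without library 4, where its lone sum was assumed to vary like the others. Without region 14 there was 1 replication gene lower in region 12, and the mitosis counts were 0 (region 4), 0 (region 12) and 1 higher against 2 lower (region 13). Library totals gave 8 (region 3) and 11 (region 3 against region 4) replication genes and 4 mitosis genes (region 4). Without the replicate block, 6 replication genes were called in region 3 against region 4 and 21 mitosis genes in region 16, and no other count changed.

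The log2 ratio of replication to mitosis in the region picked by the natural killer markers was -0.71 (other set), -0.72 (resolution 1.0), -0.85 (5000 UMIs) and -0.87 (without the most counted genes). In the region picked by the decidua markers it was -0.19, -0.24 and -0.31 (resolution 1.0, 5000 UMIs, without the most counted genes). Without the most counted genes it was -0.47 in region 13 and -0.68 in region 16. With spots of at least 5000 UMIs the epiblast list gave -0.17. It then picked the trophoblast-marker region, so this is not a ratio of region 16. The mean rho between spots was 0.39 at 3000 UMIs and 0.17 at 1000.

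Of 864 single-gene values under alternatives, 781 kept direction and call, 53 lost and 7 gained a call, and 23 changed sign. With spots of at least 5000 UMIs the epiblast list picked the trophoblast-marker region. There Cenpf (-1.16), Kif23 (-0.18), Mki67 (-0.24) and Top2a (-0.12) differed in sign from region 16, so these are not values of region 16. The other sign changes of that run were Ccnb1 (0.15) and Mcm2 (0.0912) in its decidua-marker region and Mki67 (-0.00378) in its smooth muscle-marker region. In region 12 they were also Ccnb1 (0.0490 at resolution 1.0, -0.52 to 0.094 with a library left out, of which 0.0045 without library 4), Mcm2 (-0.0671), Mki67 (-0.40) and Top2a (-0.53) with the other set, and Mki67 (-0.0130) and Top2a (-0.12) without region 14. In region 13 they were Mcm2 (-0.0305 with DESeq2 size factors, -0.0153 in DESeq2's Wald test, -0.0147 with the other set, -0.075 to 0.22 with a library left out, of which -0.00030 without library 4, -0.18 without region 14), Mki67 (0.0203 without library 3) and Top2a (0.0441 without library 1+2). The cause was not tested. Regions 14 and 16 rest on 2 libraries, and counts as low as 0 to 10 UMIs per sum limit Cenpe, Cenpf and Kif23.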
